A study of Mus musculus with 2 samples.

Results

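The 10 genes described here hold sister chromatids together or let them go: Smc1a, Smc3, Rad21, Stag1, Stag2, Esco2, Sgo1, Sgo2a, Pttg1 and Espl1. They were taken by symbol from the 32285 genes in the files, and their UMIs (unique molecular identifiers, 1 for each captured RNA molecule) were read in cell barcodes with at least 3000 UMIs, at least 500 genes and at most 20% mitochondrial UMIs. All 10 were found, and each had at least 20 UMIs in every cell class compared. The single-cell libraries came from hearts of mouse embryos of stage E10.5. The library labelled knockout held BubR1fl/fl; Nkx2.5-cre (het) hearts and the library labelled wildtype held BubR1+/+; Nkx2.5-cre (het) hearts, so both groups carried Nkx2.5-cre on 1 allele. Each group was a single library of 4 pooled hearts, and embryos waited on ice for 3 hours before dissection. Nkx2.5-cre acts in progenitors of the heart and their descendants, and the labels do not say in which cells the floxed allele was recombined.

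Cohesin is a protein ring that encloses both sister chromatids from S phase until anaphase. Smc1a and Smc3 form its arms, Rad21 closes it, and either Stag1 or Stag2 binds Rad21. Esco2 acetylates Smc3 during replication, which locks the ring. Sgo1 and Sgo2a, the shugoshins, shield the ring at centromeres by bringing in a phosphatase. At anaphase the protease separase (Espl1) cuts Rad21, once its inhibitor securin (Pttg1) has been destroyed by the anaphase-promoting complex. BubR1, the product of Bub1b, is a checkpoint protein that holds this complex back until all chromosomes are attached to the spindle. The question put to the data was how the RNA of the genes downstream of that checkpoint stood in each cell class of both libraries.

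Each group has 1 library, so no replicates check the values and no test was run. Levels are in CPM, the usual scaling of a gene's UMIs by the UMI total of its class and library, and brackets hold 95% intervals for counting error alone. Each ratio is on the log2 scale, the library labelled knockout over that labelled wildtype, relative to the median gene of the class. A gene counted as higher or lower when it lay at least 1.5-fold from that median gene.

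The libraries stood apart in more than genotype. The library labelled knockout kept 5966 barcodes with a median of 17042.5 UMIs, against 7440 barcodes with a median of 9504.5 UMIs in the library labelled wildtype, and 8 barcode sequences were kept in both. Bub1b had 28.0 CPM [24.8, 31.5] in cardiomyocytes labelled knockout, against 54.7 CPM [50.04, 59.6] in those labelled wildtype, a ratio of -1.06. Its ratios lay between 0.21 and 0.69 in the other 4 classes compared. In macrophages, read by level alone, Bub1b was also lower labelled knockout. It had 51.7 CPM [38.7, 67.6] there, against 86.3 CPM [74.7, 99.2] in macrophages labelled wildtype. No source used here names the deleted exons, so 3′ reads do not prove either label. The Y-linked gene Uty had 0 UMIs in every one of 6 classes labelled knockout, against 3.82 to 62.5 CPM in those labelled wildtype, and in cardiomyocytes the X-inactivation RNA Xist had 461 CPM in the library labelled knockout and 154 CPM in the library labelled wildtype. Smc1a and Stag2 lie on the X chromosome, whose genes had a median ratio of -0.014 in cardiomyocytes. Hemoglobin made up 0.112% of UMIs in cardiomyocytes labelled knockout and 7.27% in those labelled wildtype. In erythroid barcodes the adult beta-globin Hbb-bs made up 0.383% of beta-globin UMIs in the library labelled knockout and 12.96% in the library labelled wildtype. The part of sex, globin stage and depth in the results below was not tested.

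Promoters were read for motifs of late cell cycle genes, since the members differed in how far they followed the cycle. RefSeq promoters on GRCm38.p6 were at hand for 7 of the 10 genes, and all 7 are shown, each from 250 bases before the start to 30 bases after it. Espl1, Sgo1 and Sgo2a had at most 3.43 CPM in cardiomyocytes without G2/M transcripts, as the values by G2/M index show, while Pttg1 and Smc3 had at least 60.3 CPM there. Capitals mark the motifs, each searched on both strands. The CHR element was read as TTTGAA. The CCAAT box is named by its letters, which read ATTGG on the other strand. The E2F site was read as TTTCCCGC, TTTCGCGC, TTTGCCGC or TTTGGCGC. No matches overlapped in the promoters shown. CHR elements and CCAAT boxes are known from promoters of late cell cycle genes.
Espl1 promoter, chr15:102296043-102296322, + strand: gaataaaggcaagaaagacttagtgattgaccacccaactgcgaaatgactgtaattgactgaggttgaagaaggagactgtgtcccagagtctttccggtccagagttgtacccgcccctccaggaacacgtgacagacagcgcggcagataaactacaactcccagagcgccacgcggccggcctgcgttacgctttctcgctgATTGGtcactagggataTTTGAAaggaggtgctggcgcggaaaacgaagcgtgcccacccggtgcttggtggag
Sgo1 promoter, chr17:53689286-53689565, - strand: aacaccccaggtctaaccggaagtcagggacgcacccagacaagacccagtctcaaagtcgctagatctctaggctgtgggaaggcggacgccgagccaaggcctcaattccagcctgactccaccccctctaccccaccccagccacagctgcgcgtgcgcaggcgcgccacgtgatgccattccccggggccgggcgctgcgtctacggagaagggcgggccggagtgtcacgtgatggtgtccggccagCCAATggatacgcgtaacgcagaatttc
Sgo2a promoter, chr1:57995724-57996003, + strand: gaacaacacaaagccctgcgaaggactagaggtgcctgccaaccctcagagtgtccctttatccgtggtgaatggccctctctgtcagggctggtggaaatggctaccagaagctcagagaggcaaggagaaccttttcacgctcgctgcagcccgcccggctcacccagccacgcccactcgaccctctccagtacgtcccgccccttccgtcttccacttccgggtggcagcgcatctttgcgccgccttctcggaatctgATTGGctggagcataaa
Pttg1 promoter, chr11:43425952-43426231, - strand: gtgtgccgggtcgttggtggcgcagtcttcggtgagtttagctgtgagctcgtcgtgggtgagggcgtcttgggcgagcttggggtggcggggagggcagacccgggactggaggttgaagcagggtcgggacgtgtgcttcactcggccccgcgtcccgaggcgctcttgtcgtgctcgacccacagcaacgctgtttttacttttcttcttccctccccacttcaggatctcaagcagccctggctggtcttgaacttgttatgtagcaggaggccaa
Smc3 promoter, chr19:53600146-53600425, + strand: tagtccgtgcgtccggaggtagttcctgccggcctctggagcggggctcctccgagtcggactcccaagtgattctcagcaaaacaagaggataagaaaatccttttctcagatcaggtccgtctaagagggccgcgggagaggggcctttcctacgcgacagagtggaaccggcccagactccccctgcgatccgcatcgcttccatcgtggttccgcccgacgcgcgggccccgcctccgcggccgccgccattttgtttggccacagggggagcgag
Smc1a promoter, chrX:152016178-152016457, + strand: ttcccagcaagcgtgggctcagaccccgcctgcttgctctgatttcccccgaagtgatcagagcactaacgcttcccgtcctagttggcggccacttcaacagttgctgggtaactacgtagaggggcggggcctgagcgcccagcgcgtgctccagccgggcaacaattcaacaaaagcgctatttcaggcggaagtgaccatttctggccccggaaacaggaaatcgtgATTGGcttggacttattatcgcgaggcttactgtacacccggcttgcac
Stag1 promoter, chr9:100643198-100643477, + strand: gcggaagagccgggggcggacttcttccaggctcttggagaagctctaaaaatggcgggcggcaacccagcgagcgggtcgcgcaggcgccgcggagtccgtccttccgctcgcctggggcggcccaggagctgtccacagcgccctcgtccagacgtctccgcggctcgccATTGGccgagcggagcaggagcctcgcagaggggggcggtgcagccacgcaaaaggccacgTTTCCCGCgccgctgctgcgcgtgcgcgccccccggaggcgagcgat
The Espl1 promoter held a CHR element and, upstream of it, a CCAAT box at bases -44 to -40. The Sgo1 and Sgo2a windows each held a CCAAT box after the start, at bases 2 to 6 in Sgo1 and 13 to 17 in Sgo2a. Of the ring genes, which were less tied to G2/M, Smc1a held a CCAAT box and Stag1 a CCAAT box and an E2F site. The windows of Pttg1 and Smc3 held none of these letters, so CCAAT boxes stood in genes of both kinds. The Pttg1 and Stag1 windows lie inside the annotated genes and not at their starts. Pttg1 begins at 43426251 on the - strand and Stag1 at 100597798 on the + strand. The sequence at those annotated starts was not read for motifs. Over all 32851 promoters of the same length, 17.2% held a CHR element, 36.1% a CCAAT box and 2.12% an E2F site. For Sgo2a the table has 2 entries, and the one shown is the entry at the start of the annotated gene.

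The members were measured in 5 classes that held at least 50 barcodes in each library, and in macrophages, where the library labelled knockout had 46. A barcode belonged to a class when at least 50% of the class's markers had a UMI in it and no other class passed, except that barcodes passing both the mesenchymal and the epicardial gate went to the one with the higher share of markers, or to epicardial on a tie. In this way the library labelled knockout gave 527 cardiomyocytes, 625 endothelial/endocardial, 474 mesenchymal, 1834 epicardial and 1117 erythroid barcodes. The library labelled wildtype gave 639 cardiomyocytes, 1185 endothelial/endocardial, 1724 mesenchymal, 905 epicardial and 621 erythroid barcodes. Cardiomyocyte markers summed to 16601 CPM in cardiomyocytes labelled knockout and 20865 CPM in those labelled wildtype, against 38.8 to 399.8 CPM in the other classes.

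**Figure D1:**
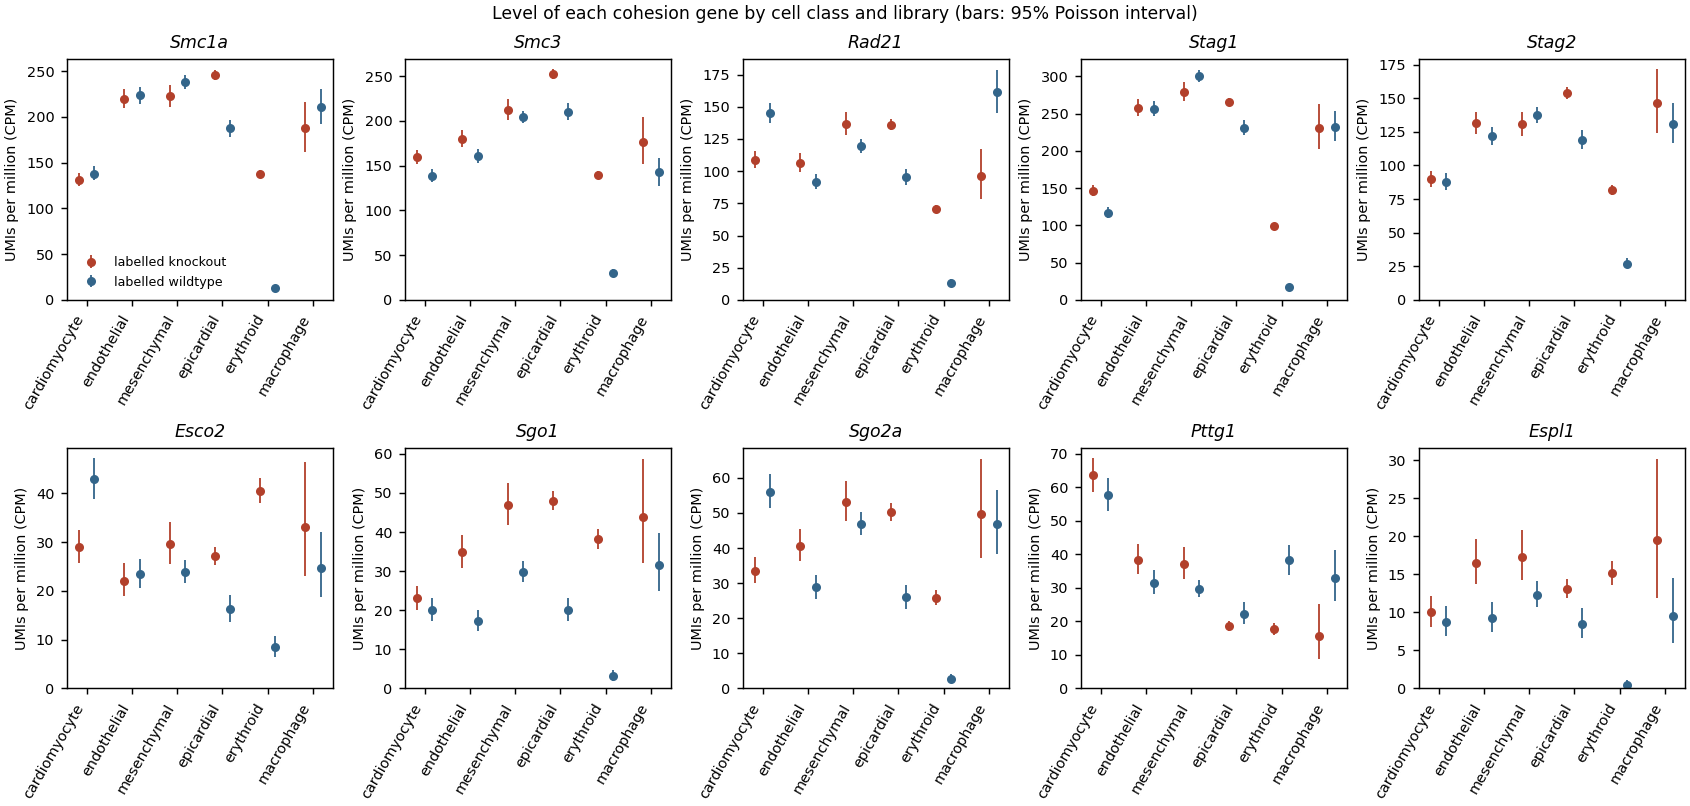
Level of each of the 10 genes (CPM, vertical axes from 0) in 6 cell classes, with the library labelled knockout left (red) and the library labelled wildtype right (blue); bars are 95% Poisson intervals. Sgo2a reached 56.1 CPM in cardiomyocytes labelled wildtype against 33.6 CPM in those labelled knockout, while Sgo1 was higher in the library labelled knockout in the 4 other classes compared.

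In cardiomyocytes the 10 genes were split, with 5 ratios above 0 and 5 below, while in epicardial and endothelial/endocardial barcodes 9 of 10 lay above 0, in mesenchymal 7 and in erythroid 8. Their median ratio was -0.0028 in cardiomyocytes, 0.48 in epicardial, 0.26 in endothelial/endocardial, 0.26 in erythroid and 0.22 in mesenchymal barcodes, where all genes have a median of 0 by construction. In cardiomyocytes 2 members, Sgo2a and Esco2, were lower and 0 were higher, beside 11.4% of all 13204 genes lower and 9.63% higher. In epicardial barcodes 4 members (Sgo1, Sgo2a, Esco2 and Espl1) were higher and 0 lower, beside 14.5% of 15431 genes higher and 19.8% lower. In endothelial/endocardial barcodes 2 (Sgo1 and Espl1) were higher, beside 9.49% of genes higher and 13.6% lower, and in mesenchymal barcodes only Sgo1 was, beside 10.0% of genes higher and 19.5% lower. In erythroid barcodes 4 (Smc1a, Sgo1, Sgo2a and Espl1) were higher and 2 (Stag2 and Pttg1) lower, beside 34.2% of genes higher and 35.0% lower.

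**Figure D2:**
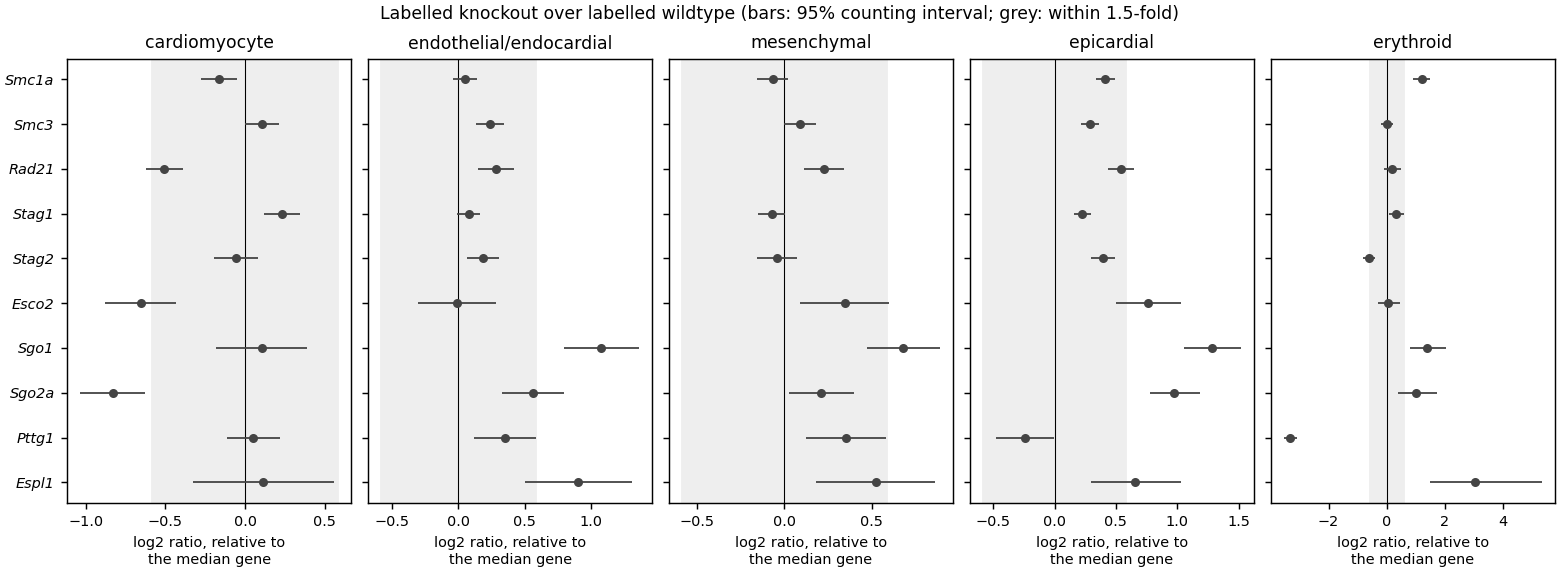
Log2 ratio of the library labelled knockout over the library labelled wildtype for each gene (rows) in 5 classes (panels with their own horizontal scales), relative to the median gene; bars are 95% counting intervals and grey marks less than 1.5-fold. In cardiomyocytes Sgo2a at -0.83 and Esco2 at -0.66 lie left of the grey band, and in epicardial barcodes Sgo1 at 1.28, Sgo2a at 0.97, Esco2 at 0.76 and Espl1 at 0.66 lie right of it.

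Of the ring, Smc1a, Smc3, Stag1 and Stag2 stayed within 1.5-fold of the median gene in cardiomyocytes and in the endothelial/endocardial, mesenchymal and epicardial classes. Smc3 (chromosome 19, 53600398 to 53645833, mm10) had 160 CPM [152, 168] in cardiomyocytes labelled knockout and 139 CPM [131, 147] in those labelled wildtype, a ratio of 0.11 [0.00048, 0.22]. Its level was highest in epicardial barcodes, at 252 CPM labelled knockout and 210 CPM [201, 220] labelled wildtype. The wildtype interval overlapped that of mesenchymal barcodes, at 205 CPM [198, 211]. Among classes labelled knockout the order of Smc3 then ran through mesenchymal (213 CPM), endothelial/endocardial (180 CPM), macrophage (177 CPM), cardiomyocyte (160 CPM) and erythroid barcodes (140 CPM), in which the interval of macrophages overlapped those of both neighbours. The place of erythroid barcodes depends on the scale, since hemoglobin took 44.9% of their UMIs labelled knockout. Per UMIs other than hemoglobin, a scale added after the data were seen, Smc3 stood at 253 CPM in erythroid barcodes labelled knockout and at 252 CPM in epicardial ones. Smc1a (X chromosome, 152016428 to 152062694) had 131 CPM in cardiomyocytes labelled knockout and 138 CPM in those labelled wildtype, a ratio of -0.16 [-0.28, -0.050].

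The Stag subunits define 2 forms of the ring. Stag1 had 146 CPM in cardiomyocytes labelled knockout and 117 CPM in those labelled wildtype, a ratio of 0.23 [0.12, 0.35], and Stag2 had 90.0 CPM labelled knockout and 87.9 CPM labelled wildtype, a ratio of -0.058 [-0.20, 0.081]. For each Stag1 UMI there were 0.615 Stag2 UMIs [0.565, 0.669] in cardiomyocytes labelled knockout and 0.752 [0.686, 0.824] in those labelled wildtype, so the intervals lay apart. In mesenchymal barcodes there were 0.468 [0.431, 0.509] labelled knockout and 0.458 [0.436, 0.481] labelled wildtype, whose intervals overlapped. In epicardial barcodes the order was the other way and the intervals lay apart, at 0.580 [0.560, 0.601] labelled knockout and 0.516 [0.478, 0.556] labelled wildtype. Erythroid barcodes held 0.824 [0.775, 0.876] labelled knockout and 1.58 [1.26, 1.98] labelled wildtype. Such ratios compare libraries within a class, since UMIs are not set on a per-length scale here.

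Rad21, the subunit that separase cuts, was the ring gene that moved most in cardiomyocytes. It had 109 CPM [103, 116] in cardiomyocytes labelled knockout and 145 CPM [138, 153] in those labelled wildtype, a ratio of -0.51 [-0.62, -0.39], which misses the 1.5-fold limit and passes it at -0.71 when every barcode is thinned to 3000 UMIs. In the other classes compared the ratio of Rad21 was positive, at 0.20 in erythroid, 0.28 in endothelial/endocardial, 0.23 in mesenchymal and 0.54 [0.43, 0.65] in epicardial barcodes. In epicardial barcodes its level was 136 CPM labelled knockout and 95.3 CPM labelled wildtype. Macrophages, read by level alone, had less Rad21 labelled knockout, at 96.6 CPM [78.5, 118] against 161 CPM [145, 179] labelled wildtype. Of the 5 ring genes in epicardial barcodes, all had intervals above 0, with ratios from 0.22 (Stag1) to 0.54 (Rad21).

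In erythroid barcodes every ring gene had more CPM in the library labelled knockout, as most genes had there. Smc3 had 140 CPM labelled knockout and 30.2 CPM labelled wildtype, a ratio of 0.0029 [-0.19, 0.20] against the median gene. Smc1a had 137 CPM labelled knockout and 12.9 CPM labelled wildtype, a ratio of 1.21 [0.91, 1.51] that came to 0.13 under a stricter gate. Stag2 had 81.4 CPM labelled knockout and 27.0 CPM labelled wildtype, a ratio of -0.62 [-0.82, -0.40] that turned to 0.26 when hemoglobin, mitochondrial and ribosomal UMIs were left out of the total.

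Esco2, the acetyltransferase of S phase, had 29.0 CPM [25.7, 32.6] in cardiomyocytes labelled knockout and 42.9 CPM [38.8, 47.3] in those labelled wildtype, a ratio of -0.66 [-0.88, -0.43]. The intervals of the levels did not overlap, but the ratio fell short of 1.5-fold under a stricter gate (-0.54) and with no centring on the median gene (-0.56). In epicardial barcodes Esco2 had 27.1 CPM [25.3, 28.9] labelled knockout and 16.2 CPM [13.7, 19.1] labelled wildtype, a ratio of 0.76 [0.50, 1.03]. Endothelial/endocardial barcodes had 22.1 CPM labelled knockout and 23.4 CPM labelled wildtype, a ratio of -0.011 [-0.31, 0.28]. Mesenchymal barcodes had 29.6 CPM labelled knockout and 23.8 CPM labelled wildtype, a ratio of 0.35 [0.089, 0.60]. These sizes lay under 1.5-fold. Esco1, the related enzyme that acts throughout the cell cycle, had a ratio of 0.12 [-0.15, 0.39] in cardiomyocytes. Cardiomyocytes thus held 1.14 Esco2 UMIs for each Esco1 UMI [0.955, 1.35] in the library labelled knockout and 1.94 [1.64, 2.31] in the library labelled wildtype, while epicardial barcodes held 1.01 [0.923, 1.12] labelled knockout and 0.477 [0.387, 0.584] labelled wildtype.

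The shugoshins parted from each other in cardiomyocytes. Sgo2a (chromosome 1, 57995971 to 58025899) had 33.6 CPM [30.1, 37.4] in cardiomyocytes labelled knockout and 56.1 CPM [51.4, 61.1] in those labelled wildtype, a ratio of -0.83 [-1.03, -0.63] from 329 UMIs labelled knockout and 523 labelled wildtype. This was the lowest ratio of the 10 genes, and it stayed past 1.5-fold, between -1.003 and -0.60, under all 12 alternatives. Sgo1 (chromosome 17, 53674786 to 53689333) had 23.1 CPM [20.2, 26.3] labelled knockout and 20.2 CPM [17.4, 23.3] labelled wildtype, a ratio of 0.10 [-0.18, 0.39]. Cardiomyocytes labelled knockout held 1.46 Sgo2a UMIs for each Sgo1 UMI [1.23, 1.73], against 2.78 [2.35, 3.30] in those labelled wildtype. Sgo2a overlaps Kctd18, which lies on the other strand, and has a close copy, Sgo2b, in the files. How far reads shared with Sgo2b bear on the level of Sgo2a was not tested.

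In the epicardial, endothelial/endocardial and mesenchymal classes the ratios of both shugoshins lay above 0, that of Sgo1 above that of Sgo2a. In epicardial barcodes Sgo1 had 48.0 CPM [45.6, 50.4] labelled knockout and 20.02 CPM [17.2, 23.2] labelled wildtype, a ratio of 1.28 [1.06, 1.52], and Sgo2a had 50.2 CPM labelled knockout and 26.0 CPM labelled wildtype, a ratio of 0.97 [0.77, 1.18]. In endothelial/endocardial barcodes the ratio of Sgo1 was 1.08 [0.80, 1.37], with 34.8 CPM labelled knockout and 17.3 CPM labelled wildtype, and that of Sgo2a 0.56 [0.33, 0.80]. The ratio of Sgo2a there passed 1.5-fold under 3 of 11 alternatives (free RNA subtracted, barcodes thinned and the mean of barcodes), at up to 0.80. In mesenchymal barcodes Sgo1 stood at 0.68 [0.47, 0.89], with 46.9 CPM labelled knockout and 29.9 CPM labelled wildtype, and Sgo2a at 0.21 [0.024, 0.40]. The Sgo1 excess in mesenchymal barcodes came to 0.49 under a stricter gate. Epicardial barcodes held 1.05 Sgo2a UMIs for each Sgo1 UMI [0.977, 1.12] in the library labelled knockout and 1.30 [1.06, 1.59] in the library labelled wildtype. The free RNA of the droplets held 39.4 CPM of Sgo1 [29.4, 51.7] in the library labelled knockout and 9.58 CPM [2.61, 24.5] in the library labelled wildtype. When free RNA was subtracted at its highest possible share, no ratio of Sgo1 in these 3 classes went under 1.5-fold.

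A UMI of Sgo1 was found in 11.3% of thinned epicardial barcodes labelled knockout [9.87, 12.8] and in 3.54% of those labelled wildtype [2.43, 4.96], with exact Clopper-Pearson intervals. Unthinned, the shares were 39.6% labelled knockout, at a median depth of 16658.5 UMIs, and 12.04% labelled wildtype, at a median depth of 8690 UMIs. None of the classes should lack cohesion genes altogether, and the lowest thinned share of Sgo1 was 1.45% [0.665, 2.73], in erythroid barcodes labelled wildtype with a median depth of 11744 UMIs. In cardiomyocytes 5 of the 10 genes had a higher thinned share in the library labelled knockout, and at full depth all 10 had.

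Of the classes compared, securin and separase had ratios of opposite sign only in epicardial and erythroid barcodes, as reported. Over the alternatives Pttg1 ran from -0.30 to 0.055 in epicardial barcodes and from -0.15 to 0.24 in cardiomyocytes. Espl1 stayed above 0 in both, so the sign of Pttg1 there depends on the setting. Pttg1 (chromosome 11, 43420250 to 43426251) had 63.6 CPM [58.7, 68.8] in cardiomyocytes labelled knockout and 57.6 CPM [52.8, 62.7] in those labelled wildtype, a ratio of 0.053 [-0.12, 0.22]. Espl1 (chromosome 15, 102296266 to 102324357) had 10.0 CPM labelled knockout (98 UMIs) and 8.68 CPM labelled wildtype (81 UMIs) there, a ratio of 0.11 [-0.33, 0.56]. Cardiomyocytes held the most Pttg1 of the 6 classes measured in each library on the CPM scale, at least 1.5-fold above the next, which was endothelial/endocardial labelled knockout (38.3 CPM) and erythroid labelled wildtype (38.2 CPM). Hemoglobin took 82.2% of erythroid UMIs labelled wildtype, and per UMIs other than hemoglobin Pttg1 stood at 215 CPM in erythroid barcodes labelled wildtype, above the 62.1 CPM of cardiomyocytes. In epicardial barcodes Pttg1 had 18.5 CPM labelled knockout and 22.3 CPM labelled wildtype, a ratio of -0.25 [-0.48, -0.0055], the only negative one of the 10 in that class. Espl1 stood the other way, at 13.1 CPM labelled knockout and 8.47 CPM labelled wildtype, a ratio of 0.66 [0.30, 1.03]. Thus epicardial barcodes held 1.41 Pttg1 UMIs for each Espl1 UMI [1.24, 1.60] labelled knockout and 2.64 [2.01, 3.49] labelled wildtype. In endothelial/endocardial barcodes Espl1 was higher too, at 16.5 CPM labelled knockout and 9.25 CPM labelled wildtype, a ratio of 0.91 [0.51, 1.31] that came to 0.44 when barcodes were thinned. Pttg1 stood at 0.35 [0.12, 0.59] there. In mesenchymal barcodes Pttg1 stood at 0.35 [0.13, 0.58] and Espl1 at 0.52 [0.18, 0.86]. For Pttg1 UMIs per Espl1 UMI, the intervals of both libraries overlapped in cardiomyocytes, endothelial/endocardial and mesenchymal barcodes.

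Erythroid barcodes showed the widest split between these genes. Pttg1 had 17.6 CPM [16.0, 19.4] labelled knockout and 38.2 CPM [34.0, 42.9] labelled wildtype, while Espl1 had 15.1 CPM [13.6, 16.8] labelled knockout and 0.396 CPM [0.0816, 1.16] labelled wildtype, from 359 UMIs labelled knockout and 3 labelled wildtype. There were 1.16 Pttg1 UMIs for each Espl1 UMI [1.01, 1.34] labelled knockout and 96.7 [32.8, 471] labelled wildtype. Hemoglobin took 44.9% of erythroid UMIs labelled knockout and 82.2% of those labelled wildtype, and the plain log2 ratio of the median erythroid gene was 2.20, so erythroid ratios depend on the scale. Relative to that median gene Pttg1 stood at -3.32, and at -1.12 on the plain scale. Espl1 stood at 3.05 and, on the plain scale, at 5.26. The direction of each was thus the same on both scales. Erythroid markers summed to 2332 CPM labelled knockout and 1406 CPM labelled wildtype, with 5 of 8 higher and 3 lower, and how far the stage of the red cells bears on these ratios was not tested.

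**Figure D3:**
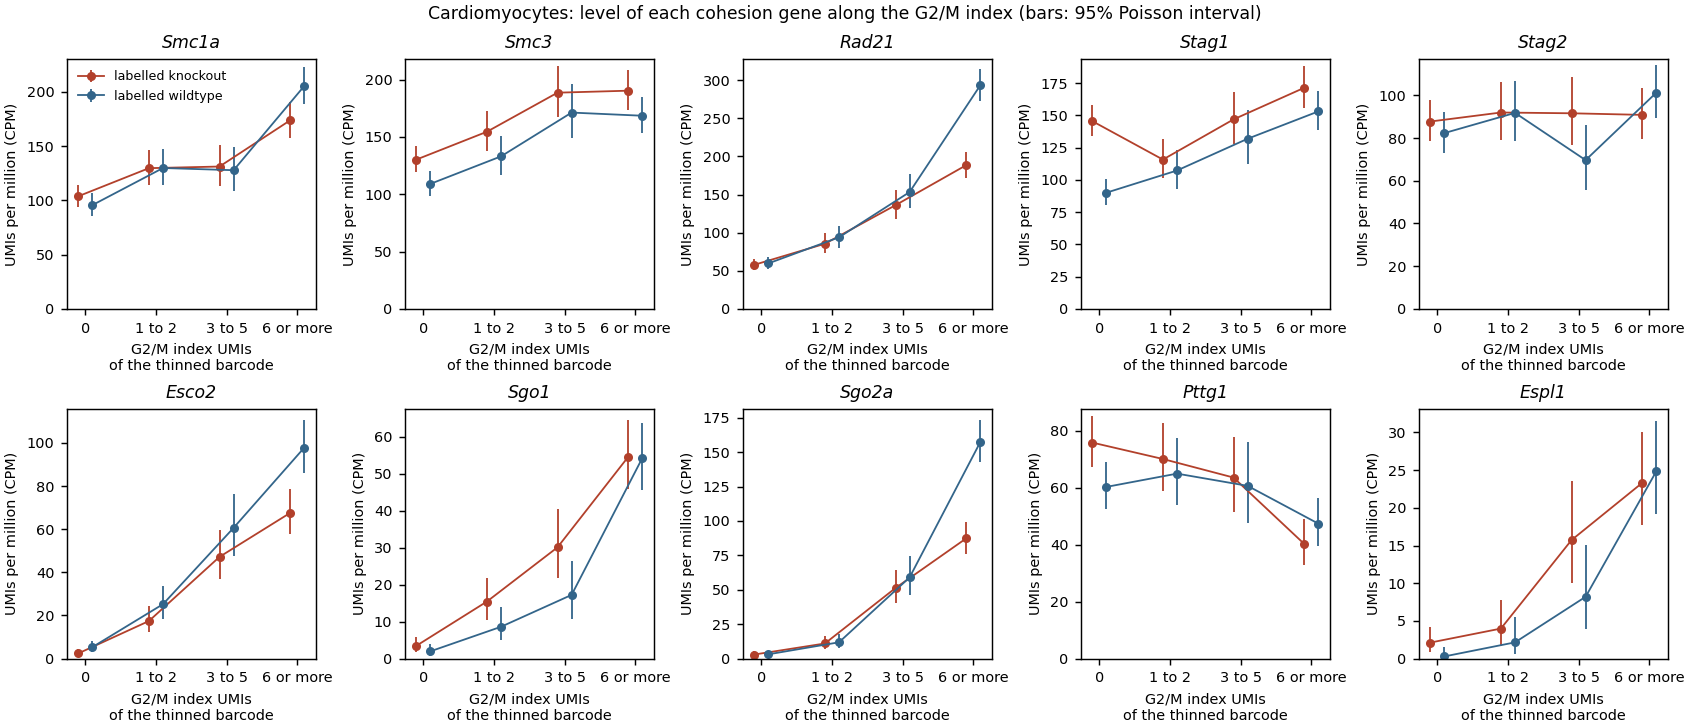
Level of each gene in cardiomyocytes (CPM, vertical axes from 0) by the number of UMIs of 10 G2/M genes in each thinned barcode (horizontal axis, 4 bins), with the library labelled knockout in red and the library labelled wildtype in blue; bars are 95% Poisson intervals. At 0 index UMIs Sgo2a stands at 2.91 CPM labelled knockout and 3.07 CPM labelled wildtype, and at 6 or more at 87.3 CPM labelled knockout and 157 CPM labelled wildtype, whereas Pttg1 does not climb.

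Where in the cell cycle each gene was expressed was read from a G2/M index of 10 genes (Top2a, Mki67, Cenpf, Ccnb1, Cdk1, Aurka, Kif11, Tpx2, Hmmr and Ccna2), none of them a member. A barcode was G2/M-high with at least 3 index UMIs after thinning. In G2/M-high cardiomyocytes Sgo2a had 74.1 CPM labelled knockout and 126 CPM labelled wildtype, against 2.91 CPM labelled knockout and 3.07 CPM labelled wildtype in barcodes with 0 index UMIs. Esco2 had 60.1 CPM labelled knockout and 86.1 CPM labelled wildtype in the G2/M-high barcodes, against 2.38 CPM labelled knockout and 5.30 CPM labelled wildtype at 0. Sgo1 and Espl1 followed the same course, with Sgo1 at 45.5 CPM labelled knockout and 42.5 CPM labelled wildtype in G2/M-high barcodes and Espl1 at 20.5 CPM labelled knockout and 19.6 CPM labelled wildtype. At 0 index UMIs Sgo1 had 3.43 CPM labelled knockout and 1.95 CPM labelled wildtype, and Espl1 had 2.11 CPM labelled knockout and 0.279 CPM labelled wildtype, the last from 1 UMI. These 4 genes thus had at most 5.30 CPM in cardiomyocytes with 0 index UMIs, and in the endothelial/endocardial, mesenchymal and epicardial classes each was at least 1.5-fold higher in G2/M-high barcodes as well. Rad21 followed with a log2 ratio of G2/M-high over 0 of 1.55 [1.33, 1.77] in cardiomyocytes labelled knockout and 2.06 [1.85, 2.28] in those labelled wildtype. The arms of the ring differed less along the index, with Smc1a at 0.61 labelled knockout and 0.92 labelled wildtype and Smc3 at 0.54 labelled knockout and 0.63 labelled wildtype. Stag2, at 0.055 [-0.16, 0.27] labelled knockout and 0.15 [-0.078, 0.38] labelled wildtype, had intervals that held 0.

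Pttg1 RNA did not follow the index. In cardiomyocytes labelled knockout it had 48.8 CPM in G2/M-high barcodes and 75.8 CPM in those with 0 index UMIs, a log2 ratio of -0.64 [-0.91, -0.37]. In cardiomyocytes labelled wildtype it had 51.6 CPM in G2/M-high barcodes and 60.3 CPM in those with 0, a ratio of -0.23 [-0.51, 0.059]. In endothelial/endocardial barcodes the ratio was -0.078 labelled knockout and 0.017 labelled wildtype, and in mesenchymal ones -0.18 labelled knockout and 0.14 labelled wildtype. An S phase index of 12 genes gave the same picture in cardiomyocytes, where Pttg1 stood at -0.54 labelled knockout and -0.21 labelled wildtype. Esco2 had 49.7 CPM labelled knockout and 96.2 CPM labelled wildtype in S-high cardiomyocytes, against 15.3 CPM labelled knockout and 12.1 CPM labelled wildtype in those with 0 S phase UMIs. Securin is known from human cell lines to peak in G2/M.

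The share of G2/M-high barcodes was alike in cardiomyocytes and unlike elsewhere. In cardiomyocytes 34.0% [29.9, 38.2] were G2/M-high labelled knockout and 33.5% [29.8, 37.3] labelled wildtype. Epicardial barcodes had shares of 44.1% [41.8, 46.4] labelled knockout and 17.5% [15.04, 20.1] labelled wildtype. Endothelial/endocardial barcodes had 36.2% [32.4, 40.1] labelled knockout and 19.7% [17.5, 22.1] labelled wildtype, and mesenchymal ones 45.4% [40.8, 49.96] labelled knockout and 29.6% [27.5, 31.9] labelled wildtype. Erythroid barcodes had shares of 64.4% [61.5, 67.2] labelled knockout and 6.44% [4.64, 8.67] labelled wildtype. These 2 shares cannot be set against each other, since hemoglobin, at 44.9% of erythroid UMIs labelled knockout and 82.2% labelled wildtype, left fewer thinned UMIs for the index in the library labelled wildtype. The summed level of the 10 index genes in cardiomyocytes was nonetheless 1017 CPM labelled knockout and 1392 CPM labelled wildtype, with 4 of 10 lower (Mki67, Cenpf, Kif11 and Hmmr).

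Within G2/M-high barcodes the ratios of Sgo2a, Esco2 and Rad21 in cardiomyocytes stayed negative, while the epicardial ratios lay nearer to 0 or below it. Each ratio within G2/M-high barcodes is relative to the median gene of those barcodes, not of the whole class. In G2/M-high cardiomyocytes the ratio was -0.81 [-1.02, -0.59] for Sgo2a, -0.59 [-0.74, -0.45] for Rad21 and -0.55 [-0.80, -0.31] for Esco2. On that baseline Esco2 lay short of 1.5-fold and Rad21 past it, the reverse of their standing in the whole class. Both intervals held the 1.5-fold limit, so which gene passes it is not resolved. Sgo1 (0.063), Espl1 (0.032) and Pttg1 (-0.11) had intervals that held 0. In G2/M-high epicardial barcodes Sgo1 stood at 0.24 [-0.0042, 0.50], against 1.28 in the whole class, Sgo2a at -0.14 [-0.35, 0.070], Esco2 at -0.29 [-0.56, -0.0062] and Espl1 at -0.39 [-0.76, 0.0076]. The 5 ring genes lay between -0.10 and 0.11 there. In G2/M-high endothelial/endocardial barcodes Sgo1 stood at 0.30 [-0.0079, 0.60] and Sgo2a at -0.16 [-0.41, 0.088], but Esco2 at -0.84 [-1.15, -0.54], with 47.4 CPM labelled knockout and 88.2 CPM labelled wildtype. In G2/M-high mesenchymal barcodes Sgo2a was at -0.36 [-0.55, -0.16] and Esco2 at -0.20 [-0.47, 0.066]. In erythroid barcodes, where only 40 labelled wildtype were G2/M-high, several ratios changed sign, each against a median gene unlike that of the whole class. Sgo1 stood at -1.03 [-1.66, -0.31] in G2/M-high erythroid barcodes, Sgo2a at -1.02 [-1.78, -0.14], Smc1a at -0.72 [-1.12, -0.29] and Rad21 at -1.49 [-1.91, -1.04]. Their levels labelled knockout were 46.4 CPM (Sgo1), 32.5 CPM (Sgo2a), 146 CPM (Smc1a) and 78.8 CPM (Rad21). Labelled wildtype, in the same order, they were 59.6, 41.7, 152 and 140 CPM.

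**Figure D4:**
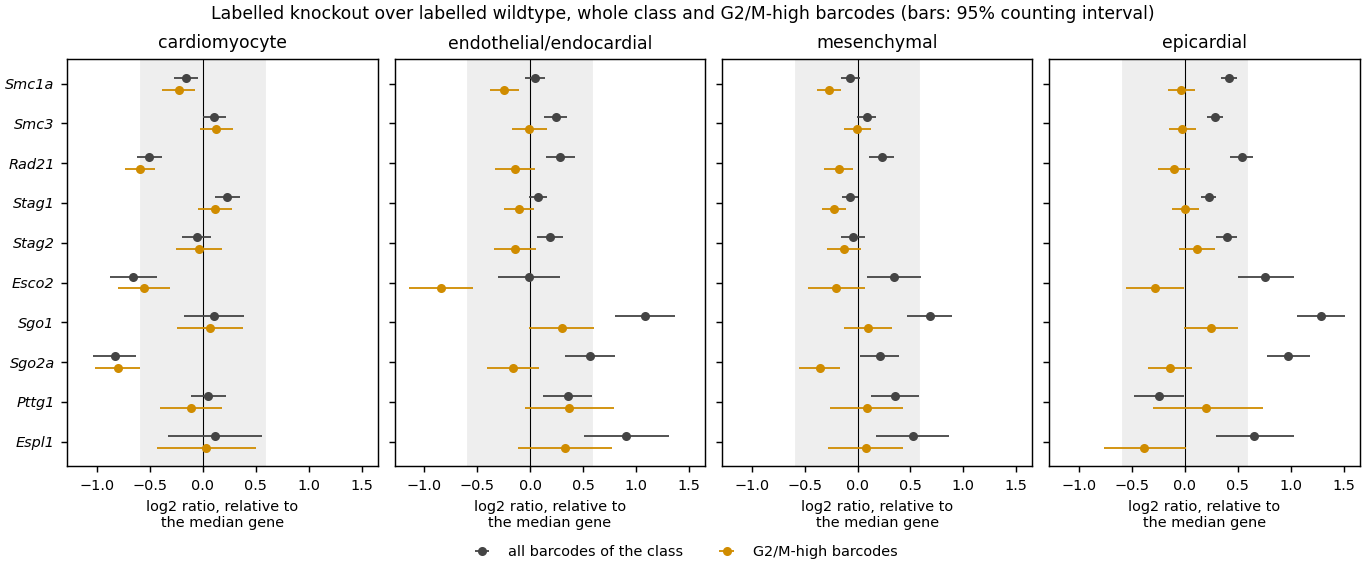
Log2 ratio of the library labelled knockout over the library labelled wildtype, relative to the median gene, in all barcodes of a class (dark) and in its G2/M-high barcodes (orange), for 4 classes on a common horizontal scale; bars are 95% counting intervals and grey marks less than 1.5-fold. Each colour has its own median gene, that of the barcodes it shows. In cardiomyocytes Sgo2a lies at -0.83 in the whole class and at -0.81 in G2/M-high barcodes. In epicardial barcodes Sgo1 lies at 1.28 in the whole class and at 0.24 in G2/M-high barcodes.

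At the low end of the index Sgo1 RNA was not equally scarce in both libraries. Barcodes with 0 index UMIs had 10.1 CPM of Sgo1 in epicardial barcodes labelled knockout and 3.09 CPM in those labelled wildtype, 13.2 CPM labelled knockout and 3.37 CPM labelled wildtype in mesenchymal ones, and 4.87 CPM labelled knockout and 1.15 CPM labelled wildtype in endothelial/endocardial ones. Cardiomyocytes with 0 index UMIs had 3.43 CPM labelled knockout, from 13 UMIs, and 1.95 CPM labelled wildtype, from 7 UMIs. At its highest possible share of a class, free RNA would give 0.803 CPM of Sgo1 in epicardial barcodes labelled knockout and 0.997 CPM in those labelled wildtype. In mesenchymal barcodes it would give 0.941 CPM labelled knockout and 0.488 CPM labelled wildtype, and in endothelial/endocardial ones 1.20 CPM labelled knockout and 0.595 CPM labelled wildtype.

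Other lists of the pathway were read in cardiomyocytes in the same way, beside the 9.63% of all genes that were higher and the 11.4% that were lower. Of 8 genes of cohesin loading and release, 0 were higher and 0 lower, with a median ratio of -0.086; Hdac8, which deacetylates Smc3, was lowest at -0.49 [-0.71, -0.27] and Pds5a, a ring regulator, stood at 0.068. Of 7 genes of cohesion establishment at the replication fork, 2 were lower, with a median of -0.22. Chtf18, a subunit of the alternative clamp loader, was among them at -1.06 [-1.76, -0.38], from 29 UMIs labelled knockout and 54 labelled wildtype. The other was Chtf8 of the same loader at -0.75, named after its value was seen, from 10 UMIs labelled knockout and 15 labelled wildtype. Wdhd1, a fork protein, stood at 0.15 [-0.20, 0.50]. Of 5 meiotic cohesion genes only Rec8 had at least 20 UMIs, with a ratio of -0.032 [-0.47, 0.41]. The 15 genes of the anaphase-promoting complex and its partners had 0 past 1.5-fold and a median of -0.095, from Anapc5 at -0.27 to Anapc10 at 0.53 [0.31, 0.75].

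Among 10 kinases and phosphatase subunits that act on shugoshin and cohesin, 2 were lower in cardiomyocytes, beside 11.4% of all genes. These were Plk1, which phosphorylates cohesin in prophase, at -0.64 [-0.87, -0.41] with 27.6 CPM labelled knockout and 40.2 CPM labelled wildtype, and Haspin, which phosphorylates histone H3 at centromeres, at -0.62 [-1.14, -0.11] from 56 UMIs labelled knockout and 77 labelled wildtype. Ppp2r1a, the scaffold of the phosphatase that shugoshins bring in, stood at 0.11 [-0.031, 0.25]. Of 10 condensin and Smc5/6 genes 0 passed 1.5-fold, with a median of -0.30, and the condensin arm Smc4 was lowest at -0.54 [-0.63, -0.45]. The 10 G2/M index genes had a median of -0.46, with Mki67 at -1.03 [-1.15, -0.91] and Hmmr at -0.86, and the 12 S phase genes had a median of -0.11. Sgo2a at -0.83 thus lay among the lower values of the G2/M genes, while Sgo1, Espl1 and Pttg1 lay above all 10, of which the highest was Ccnb1 at -0.13.

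In epicardial barcodes, where 14.5% of all genes were higher and 19.8% lower, all 10 G2/M index genes and all 12 S phase genes were higher, with medians of 1.07 and 1.11, as were 5 of 7 fork genes, 6 of 10 condensin genes, 5 of 10 kinase and phosphatase genes and 4 of 15 genes of the anaphase-promoting complex. In endothelial/endocardial barcodes 7 of 10 G2/M index genes, 8 of 12 S phase genes, 4 of 7 fork genes, 2 of 10 condensin genes, 3 of 10 kinase and phosphatase genes and 3 of 15 of the complex were higher, beside 9.49% of all genes. In mesenchymal barcodes 7 of 12 S phase genes were higher, but only 1 of 10 G2/M index genes, 0 of 7 fork genes, 1 of 10 condensin genes, 1 of 10 kinase and phosphatase genes and 1 of 15 of the complex, beside 10.0% of all genes. Cohesin loading and release stood apart from this in epicardial barcodes, with 1 of 8 higher, 1 lower and a median of -0.0084. The higher one was Cdca5, sororin, which guards the acetylated ring, at 1.61 with 13.4 CPM labelled knockout and 4.46 CPM labelled wildtype. The lower one was Hdac8, which lies on the X chromosome, at -0.70 with 54.4 CPM labelled knockout and 89.7 CPM labelled wildtype. Hdac8 was also lower in endothelial/endocardial (-0.82) and mesenchymal barcodes (-0.93), and higher in erythroid ones (1.22), where Cdca5 was higher too (1.39), as it was in endothelial/endocardial ones (1.01). Both genes were named here after their values were seen. In epicardial barcodes the 8 mesenchymal markers summed to 1230 CPM labelled knockout and 3047 CPM labelled wildtype, with 4 higher and 4 lower and none at 0, and their part in these ratios was not tested. In cardiomyocytes the same markers summed to 551 CPM labelled knockout and 167 CPM labelled wildtype, with 5 of 8 higher, and none at 0. Ventricular-gated cardiomyocytes alone, 422 labelled knockout and 469 labelled wildtype, gave -1.003 for Sgo2a, -0.76 for Esco2 and -0.54 for Rad21.

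The genes most like each member in level were found over 10 points, 5 classes in each library, among 6533 genes with at least 20 CPM on average. These correlations describe the points, which share libraries and depth. Hemoglobin took 82.2% of UMIs at the erythroid point labelled wildtype, where Smc3 had 30.2 CPM, against at least 139 CPM at the other points. How far that point shapes the correlations was not tested. Smc3 was most like the splicing factor Prpf8 (Pearson r = 0.998), Stag1 most like the nucleoporin Nup98 (0.998) and Rad21 most like the microtubule protein Ckap5 (0.994). Sgo2a was most like the mitotic kinesin Kif4 (0.990) and the spindle midzone protein Prc1 (0.990), whereas Sgo1 was most like Uhrf1, which maintains DNA methylation in S phase (0.989), and Brca1, a DNA repair gene (0.987). Espl1 was most like Fbxo5, an inhibitor of the anaphase-promoting complex (0.984). Esco2 was most like the phosphatase Cdkn3 (0.945), and Pttg1 was least like any gene, with Plaat3 nearest at 0.899. Among the members, Stag1 and Stag2 had the highest mutual r at 0.988, and Pttg1 had r between -0.34 and 0.081 with the other 9.

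Macrophages gave levels alone. Sgo2a had 49.7 CPM [37.0, 65.4] in macrophages labelled knockout and 46.8 CPM [38.4, 56.6] in those labelled wildtype, and Sgo1 had 43.9 CPM labelled knockout and 31.7 CPM labelled wildtype, with overlapping intervals for both genes. Rad21 had 96.6 CPM [78.5, 118] labelled knockout and 161 CPM [145, 179] labelled wildtype, whose intervals did not overlap. Pttg1 had 15.6 CPM [8.92, 25.3] labelled knockout and 33.0 CPM [26.0, 41.3] labelled wildtype, also apart, from 16 UMIs labelled knockout and 76 labelled wildtype. The other 6 members ranged from 19.5 to 231 CPM labelled knockout and from 9.54 to 232 CPM labelled wildtype.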

How the data were processed

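Per the submitters' processing notes and the file headers, the authors counted reads of 10x Chromium 3′ v3.1 libraries with Cell Ranger 7.1.0 against mm10. What they deposited are raw UMI counts for all barcodes, without normalisation. Whether intronic reads were counted, and the filters used by the authors, are not given here. In all, 130039314 UMIs were counted for the library labelled knockout and 122834180 for that labelled wildtype. Barcodes with at least 3000 UMIs, at least 500 genes and at most 20% mitochondrial UMIs were kept. Each was placed in a class by 10 marker lists. Barcodes that passed both the mesenchymal and the epicardial gate went to the higher share of markers, or to epicardial on a tie, a rule chosen after the data were seen. Other barcodes that passed several gates (998 labelled knockout, 745 labelled wildtype) were left out as mixed. No doublet caller was used except as an alternative, where the highest Scrublet scores in scanpy 1.11.5 were removed (285 barcodes labelled knockout and 443 labelled wildtype). The caller's automatic threshold marked 263 labelled knockout and 1 labelled wildtype.

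Counts were summed per class and library with numpy 2.4.6 and scipy 1.17.1 and scaled to CPM. Ratios have exact conditional binomial intervals, levels exact Poisson intervals and shares exact Clopper-Pearson intervals, all at 95%. The median gene was that of all genes reaching 20 UMIs in a class over both libraries. For ratios within G2/M-high barcodes it was the median gene of those barcodes. Thinning drew 3000 UMIs from every barcode. Free RNA was read from barcodes with 10 to 100 UMIs, and its highest possible share was 1.17% to 3.05% of a class labelled knockout and 2.22% to 10.4% of a class labelled wildtype. Genes named beyond the members were, for each list in cardiomyocytes, the 2 highest and 2 lowest ratios with at least 50 UMIs, and for likeness the nearest genes in log2(CPM + 10) over 10 points; 12 had been planned, but macrophages fell short of 50 barcodes. Not every gene the rule allows is printed. Coordinates are from GENCODE vM21, in which 50 of 32285 genes had no match. Tested on simulated cardiomyocyte counts, the intervals held the true ratio for 95.9% of 1000 genes, and 100% of genes changed 2-fold were recovered. The simulated counts held counting error alone, so they cannot speak to variation between cells, embryos or libraries. The members, lists and tests were chosen with earlier results of these data known. Alternatives changed 1 choice at a time.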

Additional observations from a re-analysis of the deposited data

Results flagged for a closer look

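For Sgo2a and Esco2 the ratio lay past 1.5-fold in opposite directions in different classes. Esco2 stood at 0.76 in epicardial barcodes and at -0.66 in cardiomyocytes. Sgo2a stood at 0.97 in epicardial and 1.02 in erythroid barcodes and at -0.83 in cardiomyocytes. With 1 library per group the difference between classes was not tested. In G2/M-high barcodes, relative to their own median gene, the ratio of Sgo2a was -0.14 in the epicardial class, -1.02 in the erythroid class and -0.81 in cardiomyocytes. That of Esco2 was -0.29 in the epicardial class and -0.55 in cardiomyocytes.

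The members were also measured in barcodes that the comparisons above leave out. Barcodes that passed several gates held 1110 CPM of the 10 members together in the library labelled knockout and 934 CPM in the library labelled wildtype. Barcodes that passed no gate held 1010 CPM labelled knockout and 232 CPM labelled wildtype. Hemoglobin made up 1.31% of the UMIs of the barcodes that passed no gate in the library labelled knockout and 72.2% in the library labelled wildtype.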

How the results depend on the processing

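Of 559 values of single members under an alternative, 502 stayed within their counting interval, 52 moved beyond it without a turn of direction in a called value, and 5 called values turned round, all 5 in erythroid barcodes. Leaving out the highest doublet scores, a minimum of 5000 UMIs, no minimum of genes and ventricular cardiomyocytes alone moved none of them beyond it. Sgo2a in cardiomyocytes and Sgo1, Sgo2a, Esco2 and Espl1 in epicardial barcodes stayed past 1.5-fold under every alternative run. Under a stricter gate (75% of markers) 1 member was past 1.5-fold in cardiomyocytes, 0 in mesenchymal and 3 in erythroid barcodes, against 2, 1 and 6 as reported, and the erythroid median was -0.015, against 0.26. There Sgo1 turned to -0.19 and Sgo2a to -0.065. With no centring, 1 member passed in cardiomyocytes. In erythroid barcodes 10 passed, with a member median of 2.47 and Stag2 at 1.59, but the median erythroid gene itself stood at 2.20 on that scale. Without hemoglobin, mitochondrial and ribosomal UMIs the erythroid median was 1.14 and Stag2 stood at 0.26. With barcodes thinned the erythroid median was -0.071 and Sgo2a stood at -0.31, and Espl1 had no value since the library labelled wildtype then held 0 of its UMIs. With the mean of barcodes the mesenchymal median was 0.39, against 0.22, and 2 members passed. The shares of all genes past 1.5-fold under each alternative are not given here, so these counts are not a result about the members. At full depth 10 members had a higher share of cardiomyocyte barcodes in the library labelled knockout, against 5 when thinned. The cause of these shifts was not tested. No paired analysis was possible because each group has 1 library. With 98 Espl1 UMIs in cardiomyocytes labelled knockout and 81 in those labelled wildtype, the 95% counting interval of its ratio ran from -0.33 to 0.56. Without hemoglobin UMIs, a scale added after the data were seen, the log2 level of Pttg1 in cardiomyocytes over erythroid barcodes labelled wildtype turned to -1.79, against 0.59, and that of Smc3 in epicardial over erythroid barcodes labelled knockout to -0.0046, against 0.85.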
